A study of Rattus norvegicus with 20 samples.

Results

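The guanylate-binding proteins (GBP) and the immunity-related GTPases (IRG) are interferon-induced GTPases, and their transcripts were followed here in the blood of rats before and after acetaminophen (APAP). The family was given as 6 genes, Gbp1, Gbp2, Gbp4, Gbp5, Igtp and Irgm, and its probe sets were chosen by symbol, as those that the platform annotation ties to exactly 1 of these names. This gave 5 probe sets of 31042, for 4 of the 6 genes, among 14217 genes with such a probe set. These are 1368332_at (Gbp2), 1385051_at (Gbp4), 1396163_at and 1397304_at (both Igtp) and 1391489_at (Irgm). No probe set carries only the symbol Gbp1 or Gbp5, and 1 probe set that lists Igtp together with Igtpl1 and Irgm2 was left out. That rule used no signal, but the family was proposed with results of these arrays in view, and which values led to it was not recorded. The values below therefore describe the family, and the adjusted p-values say where its genes stand in a fit over all probe sets, not that the family was found by an independent test.

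Male Wistar rats, an outbred strain, were given a single oral dose of 1200 mg/kg APAP after a 12 h fast. Of 35 dosed rats, the 5 with the highest serum ALT (alanine aminotransferase, an enzyme that leaks from injured liver) at 24 h formed the susceptible sub-group and the 5 with the lowest formed the resistant sub-group. The 20 arrays are 5 susceptible postdose, 5 susceptible predose, 5 resistant postdose and 5 resistant predose blood samples, 1 per rat and time. Predose blood was drawn behind the eye (retro-orbital plexus) 1 week ahead of dosing, and postdose blood from the inferior vena cava 24 h after it, with red cells lysed before RNA extraction. Postdose and predose samples thus differed in APAP, in the site of bleeding, in the fast and in the day, and no array of vehicle-treated rats was analysed here, so that these cannot be told apart. In whole blood, fewer cells of a type and less RNA per cell cannot be told apart either. The labels do not say that equal replicate numbers are 1 rat.

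GBPs are large GTPases that interferons, above all interferon-gamma, switch on in many cell types. In mice and humans they assemble on the membranes of bacteria and parasites inside cells and help open them to the cytosolic sensors that activate inflammatory caspases. In mice, IRGs act on the vacuoles of intracellular parasites, and the IRGM proteins, of which Irgm and Igtp are members, keep the other IRGs inactive on the cell's own membranes. Rat roles given here are taken from the mouse and human genes.

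The promoters are shown because interferon-activated factors bind known patterns of letters, which can be looked for in them. RefSeq (GRCr8) lists all 6 genes, and the window holds 250 bases before and 50 bases after the start of each gene, 300 in all. The patterns were GAAA, 2 letters of any kind and GAAA again, which is the core of the interferon-stimulated response element, and TTCNNNGAA, the core of the interferon-gamma activated site. Both were searched on both strands. The windows of the 4 measured genes are given 5′ to 3′ on the strand of the gene, with capitals marking each match, and where the 2 patterns stand side by side in Igtp and Irgm the 2 lower case letters between them belong to neither.
Gbp2, chr2:234005477-234005776, plus strand: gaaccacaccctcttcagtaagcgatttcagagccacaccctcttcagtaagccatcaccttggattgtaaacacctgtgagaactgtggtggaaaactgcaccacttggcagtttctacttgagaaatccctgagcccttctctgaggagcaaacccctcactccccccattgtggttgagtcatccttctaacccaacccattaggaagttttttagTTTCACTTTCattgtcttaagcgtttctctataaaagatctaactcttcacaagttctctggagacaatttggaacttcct
Gbp4, chr2:233978236-233978535, plus strand: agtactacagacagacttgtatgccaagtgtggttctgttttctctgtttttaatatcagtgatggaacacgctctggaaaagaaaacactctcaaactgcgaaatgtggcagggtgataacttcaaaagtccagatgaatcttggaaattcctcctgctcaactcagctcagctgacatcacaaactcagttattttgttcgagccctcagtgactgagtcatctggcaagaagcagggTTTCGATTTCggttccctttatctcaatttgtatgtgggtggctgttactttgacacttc
Igtp, chr10:42874797-42875096, plus strand: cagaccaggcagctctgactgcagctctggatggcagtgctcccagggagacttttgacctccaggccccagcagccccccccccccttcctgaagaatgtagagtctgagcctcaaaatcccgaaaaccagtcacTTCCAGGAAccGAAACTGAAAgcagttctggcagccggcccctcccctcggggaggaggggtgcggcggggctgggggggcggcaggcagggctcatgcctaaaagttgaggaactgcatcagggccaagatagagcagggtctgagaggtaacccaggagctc
Irgm, chr10:33742529-33742828, minus strand: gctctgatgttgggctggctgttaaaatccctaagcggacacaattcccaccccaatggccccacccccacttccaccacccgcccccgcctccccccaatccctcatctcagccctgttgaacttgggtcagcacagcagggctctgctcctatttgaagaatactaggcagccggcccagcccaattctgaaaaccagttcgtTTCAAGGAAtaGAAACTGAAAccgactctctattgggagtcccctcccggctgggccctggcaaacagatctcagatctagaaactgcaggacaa

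The response element core was in the windows of all 6 genes, the 4 measured ones and Gbp1 and Gbp5, against 3.92% of 33469 rat promoter windows (1312). Its match lay between bases -31 and -22 in Gbp2 and between -10 and -1 in Gbp4, both on the reverse strand, where it reads as TTTC, 2 letters and TTTC in the printed windows. It lay between -103 and -94 in Igtp and between -34 and -25 in Irgm. Gbp1 held 3 matches, of which 2 overlap. The activated site core was in 2 of the 6, Igtp and Irgm, against 8.87% of all windows, and 0.514% of all windows held both. Of 4 other GBP and IRG genes with a window (Gbp6, Gbp7, Irgm2, Irgq), Gbp7 and Irgm2 held both cores and Gbp6 and Irgq held neither. A match is a description of letters and not of a bound site.

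In Igtp, Irgm and Irgm2 the 2 cores followed each other at the same spacing, as TTCNNNGAA, 2 letters of any kind and the response element core. This pattern of 21 bases was written after the sequences had been seen. It was in 7 of 33469 windows (0.0209%), those of Ifgga2l2, Igtp, Irgm, Irgm2, LOC134480693, Parp14 and Stra8. The 3 stretches are set under each other here, with capitals for the letters that the pattern fixes.
Igtp, chr10:42874933-42874953: TTCcagGAAccGAAActGAAA
Irgm, chr10:33742603-33742623: TTCaagGAAtaGAAActGAAA
Irgm2, chr10:42889857-42889877: TTCtagGAAccGAAActGAAA
On chromosome 10, Irgm2 is the protein-coding neighbour next to Igtp, while Irgm lies apart from them. On chromosome 2, Gbp5, Gbp7, Gbp4, Gbp2 and Gbp1 follow each other.

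**Figure D1:**
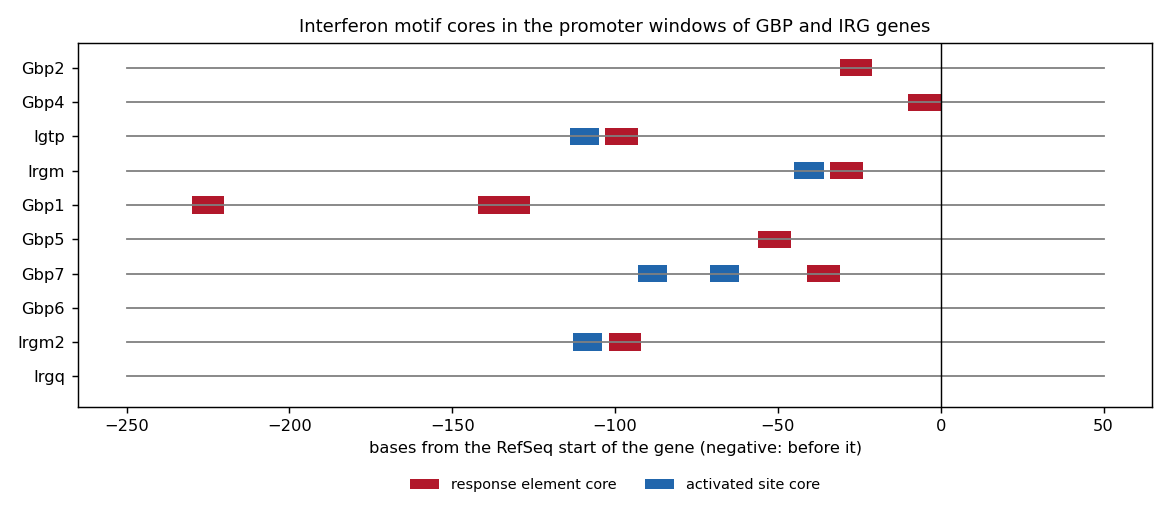
Position of the 2 interferon motif cores in the promoter windows of GBP and IRG genes, 1 row per gene, with the x axis in bases from the RefSeq start. All 6 members have the response element core, and Igtp, Irgm, Irgm2 and Gbp7 also have the activated site core, while Gbp6 and Irgq have neither.

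All signals are deposited intensities scaled so that the median of each array is 1000, and are given below as multiples of the array median. A signal compares arrays for 1 probe set and not genes with each other. The log2 ratio of 3′ to 5′ actin probe sets was 0.67 to 0.91 in susceptible postdose, 0.82 to 0.95 in susceptible predose, 0.66 to 0.91 in resistant postdose and 0.77 to 0.85 in resistant predose samples. The lowest signal of any member was 1.82 times the array median, while the brightest of the bacterial trp control probe sets reached 0.279 times at most, so that the members lay above background on all 20 arrays. All 5 passed the filter on low values. No 2 arrays were identical, and each group of 5 rats measures the spread between animals.

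Gbp2 in mice is needed for defence against Toxoplasma. Its signal was 194, 141, 193, 104 and 90.9 times the array median in the 5 susceptible postdose samples, against 45.6, 40.6, 27.6, 25.1 and 34.3 in the susceptible predose samples. It was 30.5, 33.8, 48.0, 31.8 and 32.7 in the resistant postdose samples, against 31.5, 61.3, 37.3, 43.5 and 25.6 in the resistant predose samples. Each susceptible postdose sample thus lay above every sample of the other 3 groups, which overlapped. The share of all probe sets in this order was not counted. It can be at most 1.56%, the share whose susceptible postdose samples all lay above the resistant postdose ones. The same limit goes for this order in Irgm and Igtp. On the log2 scale Gbp2 averaged 17.07 ± 0.50 in susceptible postdose and 15.04 ± 0.36 in susceptible predose blood, and 15.09 ± 0.26 in resistant postdose and 15.22 ± 0.48 in resistant predose blood (SD, n = 5 each).

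Irgm, the rat gene of mouse Irgm1, had 21.5, 16.7, 28.0, 15.6 and 16.5 in susceptible postdose samples, against 8.31, 7.15, 3.68, 4.39 and 9.81 in susceptible predose samples. In resistant rats it had 7.72, 6.65, 7.40, 5.10 and 5.23 postdose, against 5.32, 12.3, 7.66, 9.59 and 5.35 predose. The pattern was that of Gbp2, with the 5 susceptible postdose samples above all others and the other 3 groups overlapping.

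Igtp, the rat gene of mouse Irgm3, was measured by 2 probe sets. The brighter, 1397304_at, had 36.7, 31.1, 43.8, 24.2 and 27.1 times the median in susceptible postdose samples, against 16.9, 14.46, 8.22, 7.13 and 19.0 in susceptible predose samples. It had 11.7, 11.1, 17.8, 9.94 and 10.1 in resistant postdose samples, against 10.9, 20.6, 14.2, 15.1 and 9.04 in resistant predose samples. The dimmer, 1396163_at, had 9.06, 6.75, 11.99, 6.13 and 7.81 in susceptible postdose samples, against 3.86, 3.67, 1.82, 2.56 and 3.59 in susceptible predose samples. In resistant samples it had 2.79, 3.26, 4.17, 2.68 and 2.44 postdose, against 2.32, 5.26, 3.28, 4.25 and 1.82 predose. With both probe sets the susceptible postdose samples lay above all others, and the 2 differed from each other by 1.48 to 2.40 on the log2 scale over the 20 arrays. Igtp has close relatives on the array, and cross-hybridisation between them was not tested.

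Gbp4 had another order. It had 9.57, 7.44, 11.96, 6.21 and 5.61 in susceptible postdose samples, against 7.99, 7.54, 4.04, 3.82 and 7.53 in susceptible predose samples. It had 2.91, 2.98, 4.52, 2.49 and 2.39 in resistant postdose samples, against 5.23, 9.70, 7.18, 7.57 and 2.83 in resistant predose samples. The postdose and predose samples of susceptible rats overlapped, and the resistant postdose samples lay below all susceptible postdose samples, with 1 resistant and 2 susceptible predose samples within their range. On the log2 scale it averaged 12.94 ± 0.45 in susceptible postdose and 12.52 ± 0.53 in susceptible predose blood, and 11.54 ± 0.36 in resistant postdose and 12.55 ± 0.69 in resistant predose blood.

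**Figure D2:**
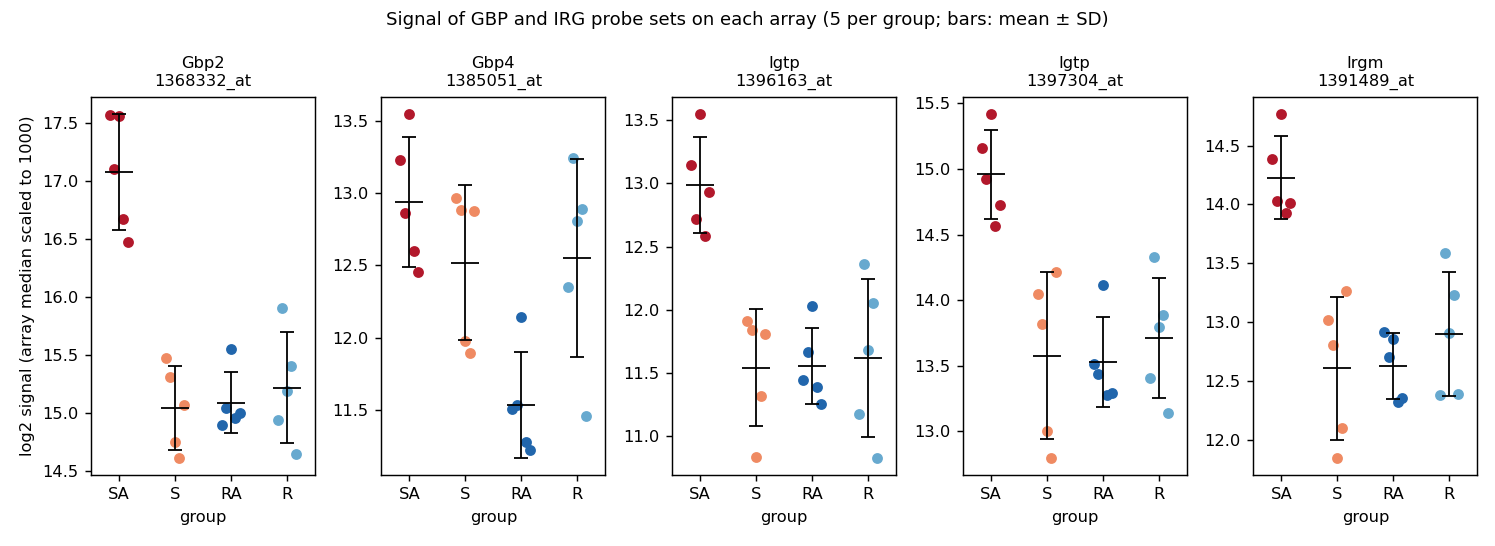
Log2 signal of the 5 GBP and IRG probe sets, with the array median scaled to 1000, 1 point per array in susceptible postdose (SA), susceptible predose (S), resistant postdose (RA) and resistant predose (R) blood, with bars for the mean and SD (n = 5 each). Gbp2, Igtp and Irgm are highest in SA with no overlap with any other group, while Gbp4 is spread over SA, S and R and lowest in RA. At most 1.56% of all probe sets can lie highest in SA without overlap.

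In susceptible rats, 4 of the 5 probe sets were higher postdose than predose past the threshold, for Gbp2, both of Igtp and Irgm, where 3.86% of all 30747 probe sets were called higher (limma, Benjamini-Hochberg adjusted p under 0.05 over all probe sets). Gbp2 differed by 2.03 ± 0.26 on the log2 scale (SE), a 4.09-fold difference, with an adjusted p of 0.000144, place 72 by p. Irgm differed by 1.62 ± 0.28, or 3.07-fold (adjusted p = 0.00204). The Igtp probe sets differed by 1.44 ± 0.28 (2.72-fold, adjusted p = 0.00425) and 1.38 ± 0.28 (2.61-fold, adjusted p = 0.00608). These 4 had no overlap between postdose and predose samples, which held in this direction for 3.93% of all probe sets. Gbp4 differed by 0.42, with a 95% interval of -0.26 to 1.09 and an adjusted p of 0.546. The median over the 5 was 1.44, against 0.01 over all probe sets tested. With the test of the study's methods and the same adjustment, Irgm (adjusted p = 0.0632) and Igtp 1397304_at (adjusted p = 0.101) no longer passed.

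In resistant rats none of the 5 passed, where 5.11% of all probe sets did in either direction. Their median was -0.18, against -0.01 over all. The difference was -0.13 for Gbp2 (95% interval -0.67 to 0.41), -0.27 for Irgm (-0.87 to 0.33) and -0.06 and -0.18 for Igtp (-0.66 to 0.53 and -0.78 to 0.41). Gbp4 was -1.01 ± 0.32, 2.02-fold lower postdose, with an interval of -1.69 to -0.34, but an adjusted p of 0.0828, and 1 of the 5 resistant predose samples lay within the postdose range. Without that sample, replicate 5, the difference was -1.28 with an adjusted p of 0.0138. This was the only 1 of 20 fits leaving out 1 array in which Gbp4 passed (highest adjusted p 0.2).

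The susceptible change minus the resistant change was positive for all 5. It was 2.16 ± 0.36 for Gbp2, a 4.47-fold difference that had the smallest p of all 30747 probe sets and an adjusted p of 0.161. It was 1.89 for Irgm (adjusted p = 0.246), 1.51 and 1.57 for Igtp (0.349 and 0.336) and 1.43 for Gbp4 (0.484). No probe set of the array passed in limma for this difference, while 6.9% had an unadjusted p under 0.05, the 5 members among them. The difference between the 2 changes was thus not established for any member at this threshold. With a stricter filter on low values, Gbp2 had an adjusted p of 0.0387. Under no other alternative did a member pass, and leaving out 1 array at a time Gbp2 passed in 0 of 20 fits (adjusted p 0.0899 to 0.348).

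The comparison of postdose blood shares its susceptible postdose arrays with the one within susceptible rats, so that the 2 are not separate evidence. In it, all 5 probe sets were higher in susceptible than in resistant rats with no overlap, as were 1.56% of all probe sets. Of these, 2 passed the threshold, Gbp2 and Irgm, where 0.124% of all probe sets were called higher. Gbp2 differed by 1.99 ± 0.26, or 3.96-fold (adjusted p = 0.00967), and had the smallest p of the array. Irgm differed by 1.60 ± 0.28, or 3.03-fold (adjusted p = 0.0266), place 30 by p. Igtp differed by 1.43 with both probe sets, 2.69-fold and 2.70-fold, each with an adjusted p of 0.0536, and Gbp4 by 1.40, or 2.64-fold (adjusted p = 0.0943). Leaving out 1 array at a time, Gbp2 passed in 20 of 20 fits (adjusted p 0.00412 to 0.0375). Irgm passed in 12 of 20, and lost the threshold without any single resistant postdose sample and without susceptible postdose replicate 1, 3 or 5 (highest adjusted p 0.0938). The number of members past the threshold ran between 1 and 5 over these fits, with 4 without susceptible postdose replicate 4 or resistant predose replicate 2 and 5 without resistant predose replicate 5. With the test of the study's methods and the same adjustment, neither Gbp2 nor Irgm passed (adjusted p = 0.156 and 0.132).

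Before dosing, the 2 sub-groups overlapped for all 5 probe sets and none passed, where 1 probe set of 30416 did (0.00329%) and 3.74% had an unadjusted p under 0.05, none of the members among them. The susceptible minus resistant difference was -0.17 for Gbp2 (95% interval -0.75 to 0.41), -0.03 for Gbp4 (-0.85 to 0.79), -0.08 and -0.14 for Igtp (-0.81 to 0.66 and -0.88 to 0.61) and -0.29 for Irgm (-1.05 to 0.47), each with an adjusted p of 1. These intervals leave room for differences in either direction, and a p above the threshold does not show equal levels.

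**Figure D3:**
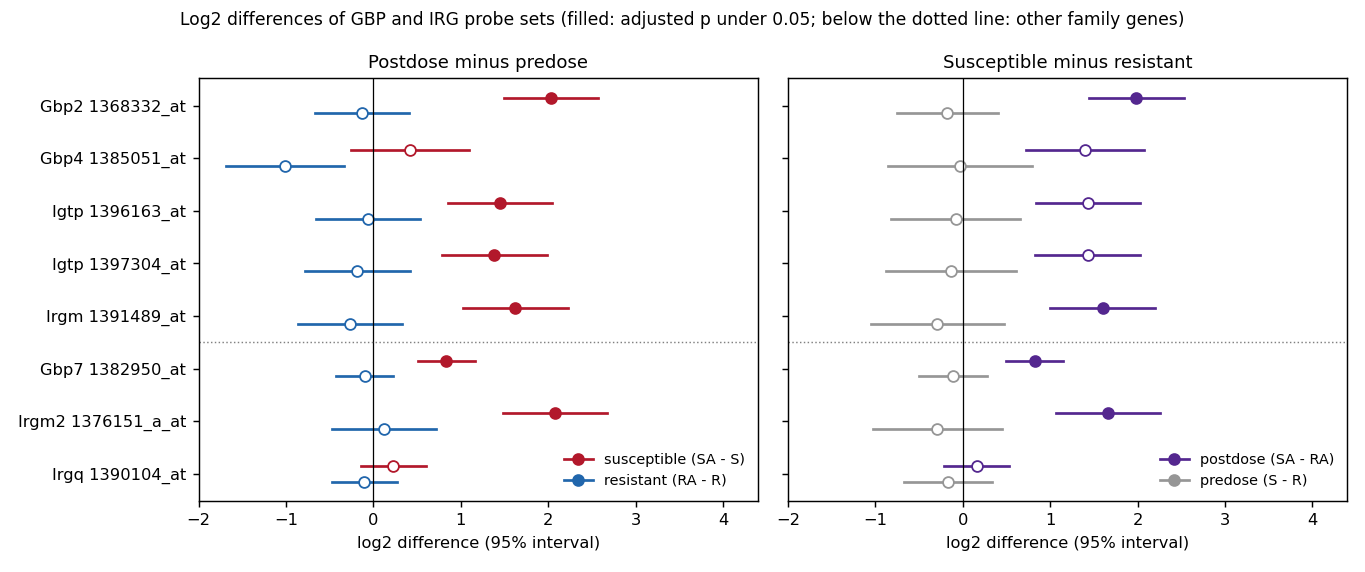
Log2 difference and 95% interval of each member probe set, and of Gbp7, Irgm2 and Irgq under the dotted line, for the postdose minus predose difference in each sub-group and for susceptible minus resistant blood at each time. Filled points passed an adjusted p of 0.05. Gbp2, Igtp and Irgm lie well above 0 in susceptible rats and near 0 in resistant rats, and all predose intervals include 0.

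Gbp2 and Gbp4, neighbours on chromosome 2, were also set against each other. The log2 signal of Gbp2 minus that of Gbp4 was 4.14 ± 0.15 in susceptible postdose and 2.52 ± 0.24 in susceptible predose blood, and 3.55 ± 0.17 in resistant postdose and 2.67 ± 0.31 in resistant predose blood (SD, n = 5 each). Its postdose values (4.02 to 4.34 in susceptible and 3.39 to 3.77 in resistant rats) lay above all predose values (2.19 to 2.77 and 2.38 to 3.18) in both sub-groups. The parts differed between the sub-groups. In susceptible rats Gbp2 differed by 2.03 postdose and Gbp4 by 0.42, and in resistant rats Gbp2 by -0.13 and Gbp4 by -1.01 (limma adjusted p = 0.0828 for Gbp4). The Gbp2 minus Gbp4 quantity was looked at after the values had been seen and is given without a test. The share of other gene pairs with such an order was not counted.

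Within a group, the members were mostly high or low in the same samples. Among resistant predose samples, replicate 2 was the highest of its group with all 5 probe sets and replicate 5 the lowest with 4. Among resistant postdose samples and among susceptible postdose samples, replicate 3 was the highest with 4 of the 5. Within a group the highest array exceeded the lowest by 2.14-fold for Gbp2 in susceptible postdose and by 2.39-fold in resistant predose blood, and by up to 3.43-fold for Gbp4 in resistant predose blood. After the mean of its group was taken from each array, the 10 pairs of member probe sets had a Pearson r of 0.78 to 0.93 over 20 arrays, which share the rats, the scaling and the cell make-up of each sample.

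Other genes were compared by how closely their deviations from the group means followed the mean of the member genes over the 20 arrays. The 8 most alike were Rnf213, Rig1, Nmi, Dhx58, Usp18, Ifitm3, Mx1 and Pml, with Pearson r of 0.94 to 0.96 among 8817 genes compared. A gene with several probe sets was taken by the one of the highest r. Rnf213 encodes a ubiquitin ligase, Nmi an interferon-induced protein, Dhx58 a relative of the RNA sensor RIG-I, and Usp18 the enzyme that removes ISG15 from proteins. Ifitm3 blocks the entry of viruses, Mx1 is an antiviral GTPase and Pml forms nuclear bodies. These correlations are within-group descriptions that leave out the group means. Of the 8 genes only Usp18 passed the threshold in susceptible rats (1.88, adjusted p = 0.0193) and in postdose blood between sub-groups (2.61, adjusted p = 0.0266). Over all probe sets, 6.66% were called in susceptible rats and 0.143% in postdose blood between sub-groups, in either direction. In susceptible rats the count of 1 gene is thus close to that share.

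**Figure D4:**
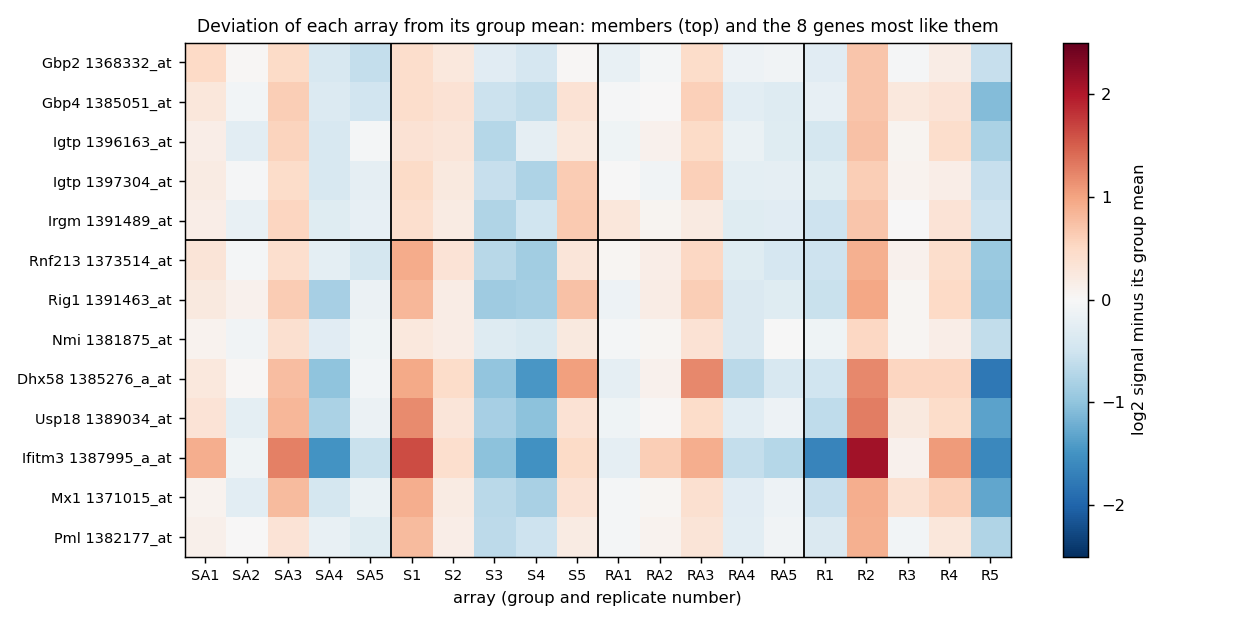
Log2 signal minus the group mean on each of the 20 arrays, in group order and by replicate number, for the 5 member probe sets (top) and the 8 genes most like them. Most columns keep 1 colour from top to bottom, with resistant predose replicate 2 high and replicate 5 low for most rows.

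Of the wider family, 3 of 20 listed genes had a probe set of 1 symbol. Gbp7 had 117, 83.8, 93.5, 76.9 and 72.5 in susceptible postdose samples, against 57.6, 53.8, 40.4, 44.8 and 50.7 in susceptible predose samples. It had 46.7 to 52.9 in resistant postdose and 39.3 to 69.0 in resistant predose samples. Irgm2, an IRGM protein like Igtp, had 97.5, 79.2, 114, 73.6 and 64.4 in susceptible postdose samples, against 38.9, 23.4, 15.01, 13.01 and 17.8 in susceptible predose samples. In resistant samples it had 21.9 to 39.1 postdose and 18.6 to 41.1 predose. Both were higher postdose in susceptible rats, Irgm2 by 2.07 (4.21-fold, adjusted p = 0.00025) and Gbp7 by 0.83 (1.78-fold, adjusted p = 0.00296). Both were also higher in susceptible than in resistant postdose blood, Irgm2 by 1.66 (adjusted p = 0.0212) and Gbp7 by 0.83 (adjusted p = 0.0387). Neither passed in resistant rats (0.12 and -0.10). Irgq, a distant relative whose window held neither motif core, differed by 0.23 in susceptible rats (adjusted p = 0.555) and its 4 groups overlapped.

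Upstream of the family, 11 genes for interferon-gamma, its receptors and its signal were measured. In susceptible rats 4 of the 11 were higher postdose and none lower, with a median of 0.40, against 6.66% called and a median of 0.01 over all probe sets. In resistant rats 1 was higher and none lower (median 0.06), against 5.11% called. Ifng itself, the ligand, was dim, with a log2 signal of 8.27 ± 1.63 in susceptible postdose and 7.69 ± 1.81 in susceptible predose blood, and 8.35 ± 1.42 in resistant postdose and 8.25 ± 0.42 in resistant predose blood. Its level on the brightest array was 1.08 times the array median, and it differed by 0.58 in susceptible rats (adjusted p = 0.788) and by 0.10 in resistant rats (adjusted p = 0.977). Irf1, a transcription factor that binds the response element, was higher by 0.71 postdose in susceptible rats (adjusted p = 0.00273), differed by -0.30 in resistant rats (adjusted p = 0.247) and was higher by 0.91 in susceptible than in resistant postdose blood (adjusted p = 0.00967). Socs1, the feedback inhibitor of the receptor kinases, was higher by 2.37 in susceptible rats (adjusted p = 0.0186) and differed by -0.72 in resistant rats (adjusted p = 0.605). Its susceptible predose samples were dim and spread, with a log2 signal of 8.24 ± 1.47 and a lowest signal of 0.0975 times the array median, below the brightest trp control of each susceptible predose array, while it averaged 10.61 ± 0.71 in susceptible postdose, 9.35 ± 0.80 in resistant postdose and 10.08 ± 0.60 in resistant predose blood (SD, n = 5 each). Socs1 differed by -1.84 between susceptible and resistant predose blood (adjusted p = 1) and by 1.25 between the sub-groups postdose (adjusted p = 0.528). Jak2, a receptor kinase, was higher by 0.40 in susceptible rats (adjusted p = 0.0357). Of the 2 receptor chains, Ifngr1 differed by 0.26 in susceptible rats (adjusted p = 0.346) and was higher by 0.54 in resistant rats (adjusted p = 0.0356). Ifngr2, named after its values had been seen, was higher by 0.47 in susceptible rats (adjusted p = 0.0442) and differed by 0.30 in resistant rats (adjusted p = 0.262).

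Of 14 other genes known as interferon-gamma targets, 6 were higher postdose in susceptible rats and none lower, with a median of 0.67, where 6.66% of all probe sets were called. In resistant rats none was higher and 1 lower, with a median of -0.09, where 5.11% were called. In postdose blood 3 were higher in susceptible than in resistant rats, where 0.143% were called. Ubd, a ubiquitin-like modifier, was higher by 1.54 in susceptible rats (adjusted p = 0.000452) and by 1.65 between the sub-groups postdose (adjusted p = 0.00967). Cxcl11, a ligand of the chemokine receptor CXCR3, was higher by 2.27 (adjusted p = 0.00635) and by 2.66 (adjusted p = 0.0266). Tap1 and Tap2, the 2 chains of the peptide transporter for MHC class I, were higher in susceptible rats by 0.68 (adjusted p = 0.00928) and 0.80 (adjusted p = 0.00277). In resistant rats Tap1 differed by 0.20 (adjusted p = 0.571) and Tap2 by 0.47 (adjusted p = 0.0823), and the susceptible change exceeded the resistant one by 0.48 and 0.34 (adjusted p = 0.683 and 0.803). Cxcl10, another CXCR3 ligand, is named after its values had been seen. It differed by 1.76 in susceptible rats (adjusted p = 0.117), was lower by 2.25 on the log2 scale postdose in resistant rats (-2.25, adjusted p = 0.0488) and was higher by 3.71, or 13.1-fold, in susceptible than in resistant postdose blood (adjusted p = 0.0226).

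Of 15 type I interferon targets, 4 were higher and none lower in susceptible rats (median 1.15), against 6.66% called over all probe sets. In resistant rats none was higher and 1 lower (median -1.05), against 5.11% called, so that the 1 gene is close to that share. Ifit3, an antiviral protein that binds its relatives, was higher by 1.56 in susceptible rats (adjusted p = 0.00549) and differed by -0.07 in resistant rats. Eif2ak2, the kinase PKR, was higher by 1.15 in susceptible rats (adjusted p = 0.032). Irf7, the main factor for interferon-alpha genes, differed by 0.39 in susceptible rats (adjusted p = 0.572) and was the gene that was lower in resistant rats (-1.14, adjusted p = 0.0431). No gene of these lists passed for the difference between the 2 changes or before dosing.

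Of 9 genes for the ubiquitin-like conjugation of autophagy, which in mice places GBPs and IRGs on vacuoles, 1 was higher in each sub-group, close to the share called over all probe sets (6.66% in susceptible and 5.11% in resistant rats). It was the same gene, Atg3, the enzyme that joins LC3 to lipid, higher by 0.54 in susceptible rats (adjusted p = 0.00279) and by 0.46 in resistant rats (adjusted p = 0.00944). A further list held 7 measured genes for caspases and the steps around them, namely Casp1, Casp4, Casp8, Gsdmd, Pycard, Il1b and Il18. The listed sensors Aim2 and Nlrp3 had no probe set of 1 symbol. Of the 7, 2 were higher in susceptible rats and 1 in resistant rats, beside the same shares. Il1b, the cytokine that caspase-1 cleaves, was higher by 1.69 in susceptible (adjusted p = 0.000242) and by 0.98 in resistant rats (adjusted p = 0.0166). Casp8 was higher by 0.96 in susceptible rats (adjusted p = 0.00115) and differed by 0.36 in resistant rats (adjusted p = 0.238).

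**Figure D5:**
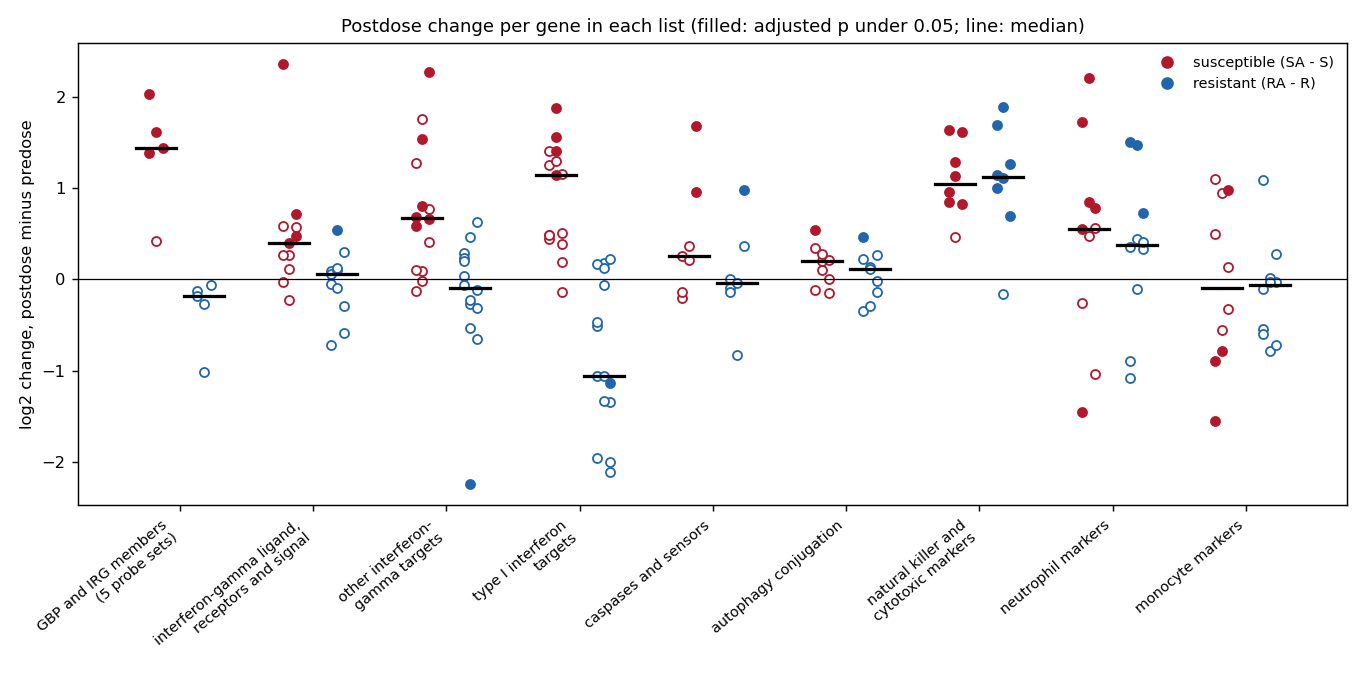
Postdose minus predose log2 change of each gene in the listed groups, for susceptible and resistant rats, with filled points for an adjusted p under 0.05 and a line at the median, beside markers of 3 blood cell types. The list labelled caspases and sensors holds caspases, Gsdmd, Pycard, Il1b and Il18, without the sensors Aim2 and Nlrp3. The medians in susceptible and resistant rats were 1.44 and -0.18 for the members, 0.67 and -0.09 for other interferon-gamma targets and 1.15 and -1.05 for type I targets.

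Markers of blood cell types moved with the postdose comparisons. The summed signal of 10 neutrophil markers was 874 to 1253 array medians in susceptible postdose against 553 to 711 in susceptible predose samples, and 854 to 1049 in resistant postdose against 528 to 763 in resistant predose samples. That of 8 natural killer and cytotoxic markers was 329 to 520 in susceptible postdose against 190.2 to 248 in susceptible predose samples, and 371 to 533 in resistant postdose against 188 to 299.7 in resistant predose samples. Of these 8, 7 were higher postdose in each sub-group, and of the neutrophil markers 5 were higher and 1 lower in susceptible and 3 higher in resistant rats. Over all probe sets, 6.66% were called in either direction in susceptible and 5.11% in resistant rats. Of 10 monocyte markers, 1 was higher and 3 lower in susceptible rats, and none passed in resistant rats. Of 4 B cell markers, 2 (Cd22 and Blnk) were lower in susceptible rats. Of 13 T cell markers 1 was lower in each sub-group, Cd4 in susceptible and Cd28 in resistant rats, which is close to the share over all probe sets. No marker of MHC class II, platelets or erythroid cells passed in either sub-group. In postdose blood between the sub-groups, 0 of 62 markers of 8 cell types passed in limma, where 0.143% of all probe sets did. At so low a share, a count of 0 is no sign of like cell make-up. Of the 62, 11 had an unadjusted limma p under 0.05. The share of all probe sets under that limit is not given here. Only 1 marker, for neutrophils, was under 100 on all arrays of a group, in susceptible postdose and in resistant predose samples. The part of these cell types in the GBP and IRG values was not tested.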

How the data were processed

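Blood RNA of 10 rats, before and after APAP, was hybridised to Affymetrix rat genome arrays, and the 20 arrays fall into 4 groups of 5. The deposited table holds 1 intensity per probe set and array, on a linear scale, with array medians between 187 and 223; the software that made it is not given in the sources used here, and the methods state a per-chip scaling to a median of 1000. Here 57 control probe sets were left out, all arrays were brought to a common median (1000), probe sets under 100 on all arrays compared were dropped (30747 remained, 30416 for the predose comparison) and values were taken as log2.

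Groups were compared with limma 3.58.1 (lmFit and eBayes) in R 4.3.3, with Benjamini-Hochberg adjustment over all probe sets and a threshold of 0.05. The 20 arrays shared 1 fit, except that the predose comparison used the 10 predose arrays. Each rat gave a predose and a postdose sample, but the fit treats the arrays as separate animals, since the labels do not pair them. The errors, intervals and p-values of the postdose minus predose differences, and of the difference between the changes, thus leave the pairing out. Exact 2-sided permutation tests of single probe sets, over 252 arrangements, were also computed, and are not printed since the family was chosen with results in view. The fit was also run on simulated data, with noise drawn independently for each probe set. The members vary together within groups, so that run does not measure false calls under shared variation. The number of arrays limits the precision.

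Gene symbols came from the platform annotation (20826 probe sets with 1 symbol, 436 with several, 9780 with none), and promoter sequences from RefSeq, GRCr8. Lists used, per gene, the probe set of the highest mean signal. Every member probe set is named, and from each list up to 4 genes past the threshold, by smallest adjusted p, with Ifng and Irf1 in any case. The 8 most alike genes are those of the highest Pearson r, among probe sets with a mean at or above the array median. For these, unlike the lists, the probe set of the highest r stood for a gene. The members and lists were chosen with earlier results of these data known. The alternatives were a quantile normalization, the unscaled values, no filter on low signals or a stricter one (1000 on 5 arrays), 1 probe set per gene, a replicate block, a fit of just the arrays compared, the methods' test, and each array left out.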

Additional observations from a re-analysis of the deposited data

Results flagged for a closer look

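Among the 20 combinations of a member probe set and a group of 5 samples, 2 had 1 sample far from the other 4. In both it was resistant postdose replicate 3, the highest of its group. Chance gives about 1 in 20 for independent combinations. The members vary together within groups, so that the count of 2 cannot be set against that rate. For Gbp2 its log2 signal was 15.55 and the next was 15.04, a gap of 0.777 of the range of the group. For Igtp (1397304_at) it was 14.12 and the next was 13.51, a gap of 0.725 of the range. Both gaps exceeded Dixon's limit of 0.71. Without that sample, the susceptible minus resistant difference in postdose blood was 2.10 for Gbp2 (limma adjusted p = 0.0169) and 1.58 for Igtp (adjusted p = 0.0503).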

How the results depend on the processing

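The higher level of Gbp2, Igtp and Irgm in susceptible rats postdose kept its direction under every alternative run, and 4 of the 5 probe sets passed in each fit but 2: with the methods' test after adjustment 2 did (Gbp2 and Igtp 1396163_at, with Irgm at 0.0632 and Igtp 1397304_at at 0.101), and with 1 probe set per gene 3 did. Leaving out each array gave 4 to 4. In resistant rats 0 passed, against 1 (Gbp4, adjusted p = 0.0296) with the stricter filter, 1 with the methods' test unadjusted at 2-fold, and 0 to 1 leaving out each array. The difference between the changes gave 0, against 1 with the stricter filter and 0 to 0 leaving out each array. In postdose blood 2 passed, against 3 with quantile normalization, 3 with 1 probe set per gene, 5 with the stricter filter and 5 with the methods' test unadjusted, and 0 with the methods' test after adjustment, with 1 to 5 leaving out each array. The stricter filter tests fewer probe sets (16623). Predose counts were 0 throughout.

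Equal replicate numbers were not shown to be 1 rat. Same-numbered deviations correlated at -0.16 to 0.18 over 10 pairs, 5 of them over 0.1. Of 10 postdose arrays, 6 correlated best with their own number among 5 predose arrays, more than random picks would give on average. These values do not settle the pairing either way. With the replicate block, 4 passed in susceptible rats and 0 in postdose blood between sub-groups (Gbp2 at 0.0994 and Irgm at 0.0888), where equal numbers are different rats, and no other count changed.

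Only differences near 0 changed sign. Before dosing, Gbp4 was 0.0013 with quantile normalization. Leaving out each array, it ran between -0.30 and 0.14, and Igtp between -0.28 and 0.11 (1396163_at) and between -0.29 and 0.0585 (1397304_at). In resistant rats Gbp2 ran between -0.27 and 0.0433 and Igtp 1396163_at between -0.26 and 0.12.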
